A study of Mus musculus with 32 samples.

Results

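The genes described here are the keratin genes of simple epithelium (*Krt8*, *Krt18* and *Krt19*), the epithelial adhesion gene *Epcam*, the mesenchymal filament gene *Vim*, and 4 genes for transcription factors of the epithelial-mesenchymal transition (EMT), *Snai1*, *Snai2*, *Zeb1* and *Zeb2*. They were picked by their symbols, and all 9 were found among the 54233 rows of the gene table. Their transcripts were followed over 8 time points (0, 2, 4, 8, 16, 24, 48 and 96 h) with 4 replicates each while mES cells turned towards primitive endoderm (PrE) after induction of GATA6. At 96 h *Krt18*, *Krt19* and *Krt8* had the largest rises of the 9, *Snai1* rose late, *Zeb1* fell while *Zeb2* rose, *Epcam* passed through a peak at 8 h, and *Vim* was high at 16 and 24 h.

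Keratins are intermediate filament proteins that assemble only as pairs of a type II and a type I chain. In simple epithelia the main type II chain is KRT8, and its type I partners include KRT18 and KRT19. EPCAM is a membrane glycoprotein of epithelial cells and of pluripotent cells, and vimentin (VIM) builds the filaments of mesenchymal cells. SNAI1, SNAI2, ZEB1 and ZEB2 are zinc finger repressors that bind the E-box CAGGTG and silence epithelial genes such as *Cdh1*. In the mouse embryo PrE forms an epithelium, from which parietal endoderm cells leave by a process often described as an early EMT, and KRT8 and KRT18 were among the proteins used early on to mark endoderm and trophectoderm.

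All 32 samples were bulk polyadenylated RNA from KH2 mES cells of the C57BL/6 strain label that carry the transgene TRE:GATA6-DSREd2, a single-copy insertion driven by a TET-responsive element, so the 0 h samples carried it as well. The 0 h samples were kept without Dox in 2i medium, which contains inhibitors of MEK and GSK3, and LIF. The samples of 2, 4 and 8 h were in serum medium with LIF and 1 µg/ml Dox, and those of 16, 24, 48 and 96 h received Dox for 12 h and then the same medium without it. Dox and the change from 2i to serum medium therefore cannot be told apart in any comparison with 0 h, and the labels do not say whether the replicates were separate cultures. The study states in general that replicate experiments were done independently, without tying this to single libraries, so p-values here measure the spread between these samples.

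Each library held between 3190108 and 12301732 reads on genes (median 8870662.5), and 4 libraries held under 5000000. Levels are given as normalized counts, that is reads divided by the size factor of the sample. Replicates 1 and 2 resembled each other at every time point, as did replicates 3 and 4, whereas these 2 sets stood apart. Where this bears on a call, values are given for each set. Of 83 changes of the 9 genes past the false discovery rate of the test given below, 62 also passed it with the mean of each set taken as 1 sample, and all that were at least 4-fold did. The summed level of 7 ES cell markers fell from 34482 to 40638 at 0 h to 2622 to 3351 at 96 h, and all 7 were lower past the threshold at 96 h. The summed level of 10 PrE markers rose from 631 to 904 at 0 h to 212993 to 297443 at 96 h, and all 10 were higher past the threshold. Because RNA was taken from whole cultures, fewer cells of a type and less RNA per cell cannot be told apart.

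RefSeq start sites (build GRCm38.p6, 250 bases before to 50 bases after the start) were found for 6 of the 9 genes. The E-box CAGGTG, searched on both strands, stood in the window of 4 of them, and these windows are shown because SNAI and ZEB factors bind this sequence and are among the genes followed. Capitals mark the E-box, which reads CACCTG where it lies on the other strand. The windows are *Epcam* at chr17:87635729-87636028 on the + strand, *Krt8* at chr15:102004293-102004592 on the - strand, *Krt18* at chr15:102027966-102028265 on the + strand, and *Snai1* at chr2:167537945-167538244 on the + strand.
Epcam: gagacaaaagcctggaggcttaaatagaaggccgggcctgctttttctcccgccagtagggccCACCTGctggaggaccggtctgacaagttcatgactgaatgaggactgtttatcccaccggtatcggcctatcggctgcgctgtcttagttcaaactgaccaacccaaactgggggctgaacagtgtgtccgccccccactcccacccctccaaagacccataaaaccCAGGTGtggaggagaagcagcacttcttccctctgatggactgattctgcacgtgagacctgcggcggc
Krt8: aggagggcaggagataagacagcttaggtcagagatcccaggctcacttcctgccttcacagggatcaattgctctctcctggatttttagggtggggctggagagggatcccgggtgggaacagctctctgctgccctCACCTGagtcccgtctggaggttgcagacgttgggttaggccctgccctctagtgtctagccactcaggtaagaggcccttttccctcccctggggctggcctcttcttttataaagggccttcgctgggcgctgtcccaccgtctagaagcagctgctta
Krt18: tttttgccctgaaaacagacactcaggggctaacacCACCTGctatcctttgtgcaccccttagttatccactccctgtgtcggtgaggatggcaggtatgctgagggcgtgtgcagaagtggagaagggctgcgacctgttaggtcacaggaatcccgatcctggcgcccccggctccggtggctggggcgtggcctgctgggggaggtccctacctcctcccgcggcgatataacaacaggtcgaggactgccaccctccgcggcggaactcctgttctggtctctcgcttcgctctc
Snai1: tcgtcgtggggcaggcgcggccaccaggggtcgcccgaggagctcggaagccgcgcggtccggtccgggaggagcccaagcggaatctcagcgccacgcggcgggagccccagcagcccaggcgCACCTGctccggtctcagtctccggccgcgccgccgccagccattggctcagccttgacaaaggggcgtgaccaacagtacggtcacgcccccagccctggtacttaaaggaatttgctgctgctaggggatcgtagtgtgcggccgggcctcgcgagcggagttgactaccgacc

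*Epcam* held 2 copies of the E-box, at -19 to -14 and at -187 to -182 from the start. The copy of *Krt8* lay at -111 to -106, that of *Krt18* at -214 to -209 and that of *Snai1* at -126 to -121. The windows of *Vim* and *Zeb2* held none. Of 32851 windows of this length, 20.2% held the E-box and 2.88% held 2 or more copies. The GATA motif AGATAA, present in 11.2% of all windows, occurred in *Krt8* at -239 to -234 and in no other of the 6 genes, and TGATAA, present in 9.05% of windows, occurred in none. These matches are letters in a short window and carry no measurement of binding.

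Each gene was tested with limma on log2(normalized count + 1) over all 15227 genes that passed a filter on low counts, and was called when its false discovery rate was below 0.1 and its change was at least 4-fold (2 on the log2 scale). All 9 genes passed the filter. This scale understates the change of genes with few reads. At 2 h, 3 of the 9 genes were called against 0 h, where 2.35% of all genes were. At 4 h the count was 3 (3.4% of all genes). The times 8, 16 and 24 h had 4 each (4.71%, 6.42% and 9.19% of all genes), and every called gene was higher. At 48 h, 6 genes were called (15.6% of all genes), of which 5 were higher (8.48%) and 1 was lower (7.09%). At 96 h, 5 were higher (9.28% of all genes) and 0 were lower (10.3%), 5 in either direction against 19.6%. Limma-voom on whole reads also called 5 at 96 h, and 2 genes were lower by the false discovery rate of limma alone.

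The false discovery rate alone was passed by 8 of the 9 genes at 2 h (44.8% of all genes) and by 7 each at 4, 8 and 16 h (48.5%, 49.1% and 53.3%). At 24 h all 9 passed it (61.8% of all genes), then 7 at 48 h (73.4%) and 8 at 96 h (76.4%). The median log2 fold change of the 9 genes was 1.15 at 2 h and 3.61 at 96 h, beside -0.03 at both times for all genes. Between neighbouring times, 0 of the 9 genes were called from 2 to 4 h (0.788% of all genes), from 4 to 8 h (0.814%) and from 8 to 16 h (1.04%). From 16 to 24 h, *Krt19* was called (1.25% of all genes), from 24 to 48 h *Vim* (3.91%) and from 48 to 96 h *Krt19* again (3.7%). In the 3 intervals with no call, 5, 3 and 5 of the genes passed the false discovery rate alone (24.4%, 17.1% and 20.0% of all genes), 5 in each had an unadjusted limma p under 0.05, and limma-voom on whole reads also called 0.

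**Figure D1:**
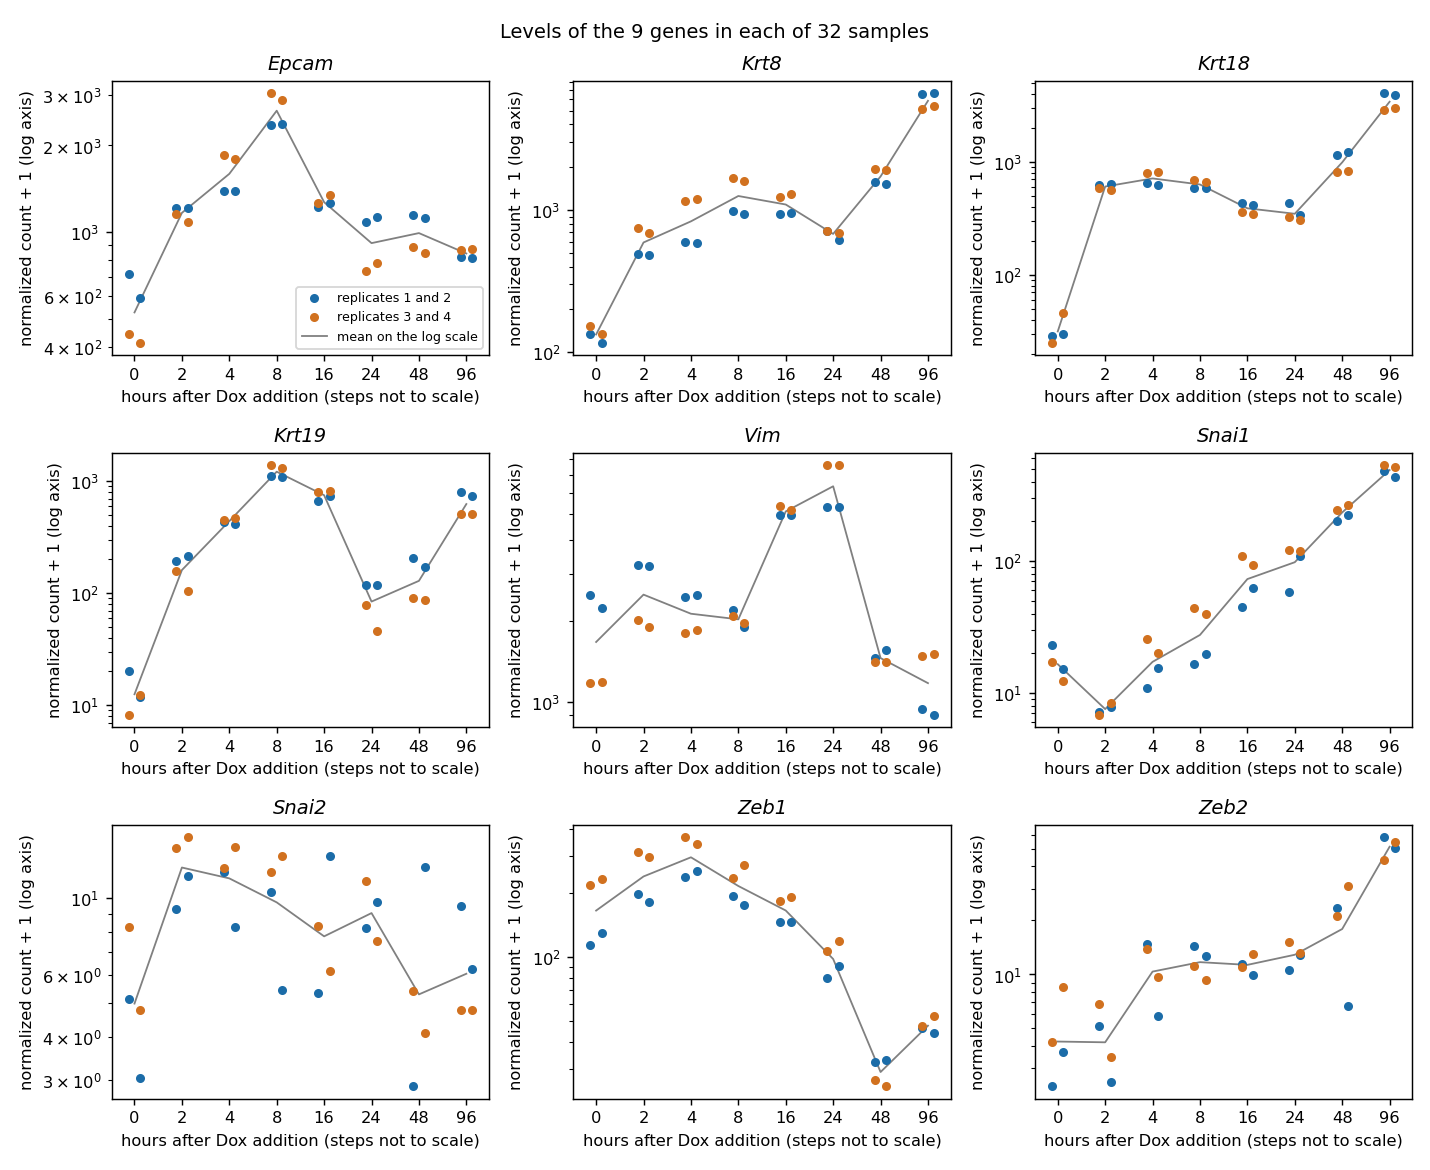
Level of each of the 9 genes in every sample, as normalized count + 1 on a log axis, against hours after Dox addition (steps not to scale). Blue points are replicates 1 and 2, orange points replicates 3 and 4, and the line joins the means on the log scale. The 3 keratin genes left their 0 h level by 2 h, *Snai1* dipped at 2 h and then climbed to between 430.2 and 531 at 96 h, and *Vim* was highest at 16 and 24 h.

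*Krt8* (ENSMUSG00000049382; chr15:101996698-102004482, - strand) encodes the type II chain. Its normalized counts at 0 h were 133, 115, 151 and 132 in replicates 1 to 4. After 2 h they were 488, 481, 750.3 and 689, and after 8 h 987, 929, 1679 and 1607. The 24 h samples held 706, 616, 711 and 684, and the 96 h samples 6522, 6606, 5124 and 5368. Every induced sample lay above every 0 h sample, and the 96 h samples lay above all others. The log2 fold change against 0 h was 2.15 ± 0.21 (SE, n = 4 against 4) at 2 h (limma adjusted p = 1.04e-09), 3.24 ± 0.21 at 8 h (adjusted p = 7.97e-14) and 5.46 ± 0.21 at 96 h (adjusted p = 2.51e-20), where the mean was 44.5-fold that of 0 h. *Krt8* was called at all 7 induced times.

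The course of *Krt8* had 2 rises with a trough between them. From 16 to 24 h its level fell by 0.69 ± 0.21 on the log2 scale (limma adjusted p = 0.0153; 0.277 for set means), from a mean of 1104 ± 187 (SD, n = 4) to 679 ± 43.6, and the samples did not overlap. It then rose by 1.34 ± 0.21 to 48 h and by 1.77 ± 0.21 to 96 h (adjusted p = 2.93e-06 and 3.35e-08). Between 2 and 16 h replicates 3 and 4 stood above replicates 1 and 2, most at 4 h, where their means were 1174 and 589. At 96 h the order was the other way, with means of 5246 and 6564. In replicates 1 and 2 alone the log2 fold change at 2 h was 1.96, just short of 2.

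*Krt18* (ENSMUSG00000023043; chr15:102028180-102032027, + strand) encodes the main type I partner of KRT8 and lies beside it. The annotated starts of the 2 genes are 23698 bases apart and they are read in opposite directions, away from each other. Its normalized counts at 0 h were 27.6, 29.2, 24.2 and 45.3. At 2 h they had reached 623, 636, 589 and 568, and at 96 h 4014, 3878, 2869 and 2974. The 2 h samples all lay above the 0 h samples, with a mean 19.1 times higher, the log2 fold change being 4.25 ± 0.15 (SE, n = 4 against 4; limma adjusted p = 1.83e-19).

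From 2 to 8 h the level of *Krt18* was nearly level, with log2 differences of 0.24 ± 0.15 from 2 to 4 h and -0.18 ± 0.15 from 4 to 8 h that did not pass the threshold (limma adjusted p = 0.315 and 0.541). It fell by 0.70 ± 0.15 from 8 to 16 h (adjusted p = 0.00177, and 0.106 with set means), to 436, 413, 363 and 344. At 48 h it stood at 1151, 1223, 809 and 835, above every earlier sample, and the rises to 48 h and from there to 96 h were 1.51 ± 0.15 and 1.78 ± 0.15 (adjusted p = 2.67e-09 and 1.12e-10). At 96 h the mean was 109 times that of 0 h. *Krt18* was called at all 7 induced times, with log2 fold changes between 3.45 at 24 h and 6.74 at 96 h.

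*Krt19* (ENSMUSG00000020911; chr11:100140810-100148665, - strand) encodes the smallest type I keratin, which lacks most of the tail domain. It was close to the limit of counting at 0 h, with 14, 16, 9 and 6 reads, or 19.3, 10.9, 7.25 and 11.3 normalized counts. At 8 h it had reached 1102, 1099, 1386 and 1299, a mean 100.2 times higher, and the log2 fold change was 6.60 ± 0.28 (SE, n = 4 against 4; limma adjusted p = 5.21e-18). No other of the 9 genes had a larger log2 fold change at 8 h. At 24 h the counts were down to 118, 117, 77.2 and 44.8, below all samples of 4, 8 and 16 h and still above 0 h.

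*Krt19* changed from 16 to 24 h by -3.16 ± 0.28 as log2 (limma adjusted p = 1.46e-09), the only drop past the threshold between neighbouring times among the keratin genes. At 48 h it was 204, 169.6, 88.8 and 86.7, overlapping 24 h. At 96 h it rose again to 799, 736, 511 and 505, a log2 change of 2.28 ± 0.28 from 48 h (adjusted p = 8.9e-08). At 24, 48 and 96 h replicates 1 and 2 stood above replicates 3 and 4, by ratios of their means of 1.92, 2.13 and 1.51. In both sets the 96 h level stayed below that of 8 h.

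The 3 keratin genes shared the rise by 2 h, a low mean at 24 h and the rise to 96 h, but not in proportion. The low was not confined to 24 h. *Krt18* overlapped between 16 and 24 h (log2 difference -0.16 ± 0.15, limma adjusted p = 0.505), and *Krt19* overlapped between 24 and 48 h. The ratio of *Krt8* to *Krt18* reads in a sample, as log2, was 2.11 ± 0.46 (SD, n = 4) at 0 h and -0.03 ± 0.40 at 2 h, and the 4 samples of these times did not overlap. It was 1.496 ± 0.402 at 16 h and 0.79 ± 0.07 at 96 h. The ratio of *Krt19* to *Krt18* was -1.42 ± 0.65 at 0 h and -2.95 ± 0.35 at 48 h, and in between reached 0.95 ± 0.05 (8 h) and 0.95 ± 0.28 (16 h). *Krt19* reads thus exceeded *Krt18* reads in every sample of 8 and 16 h and in no sample of any other time.

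Levels per kb of annotated exon allow the chains to be set side by side, on the assumption that all annotated exons are used. The sum of *Krt18* and *Krt19* per kb, the type I chains, was 0.427 ± 0.119 (SD, n = 4) of the *Krt8* level per kb at 0 h. It was 1.75 ± 0.54 and 1.74 ± 0.37 at 2 and 8 h, and 0.902 ± 0.052 at 96 h. *Krt19* made up 59.9% ± 0.9 (SD, n = 4) of these 2 type I levels per kb at 8 h and 12.5% ± 0.8 at 96 h. Other keratin genes were left out of these values, among them *Krt7* and *Krt13* (mean of 489 normalized counts at 8 h). They therefore do not give the balance of all type I and type II chains. A processed copy of *Krt8* on another chromosome, *Krt8-ps*, held 3059 reads in all samples together, beside 50410 for *Krt8*, and how shared reads were split between them is uncertain.

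**Figure D2:**
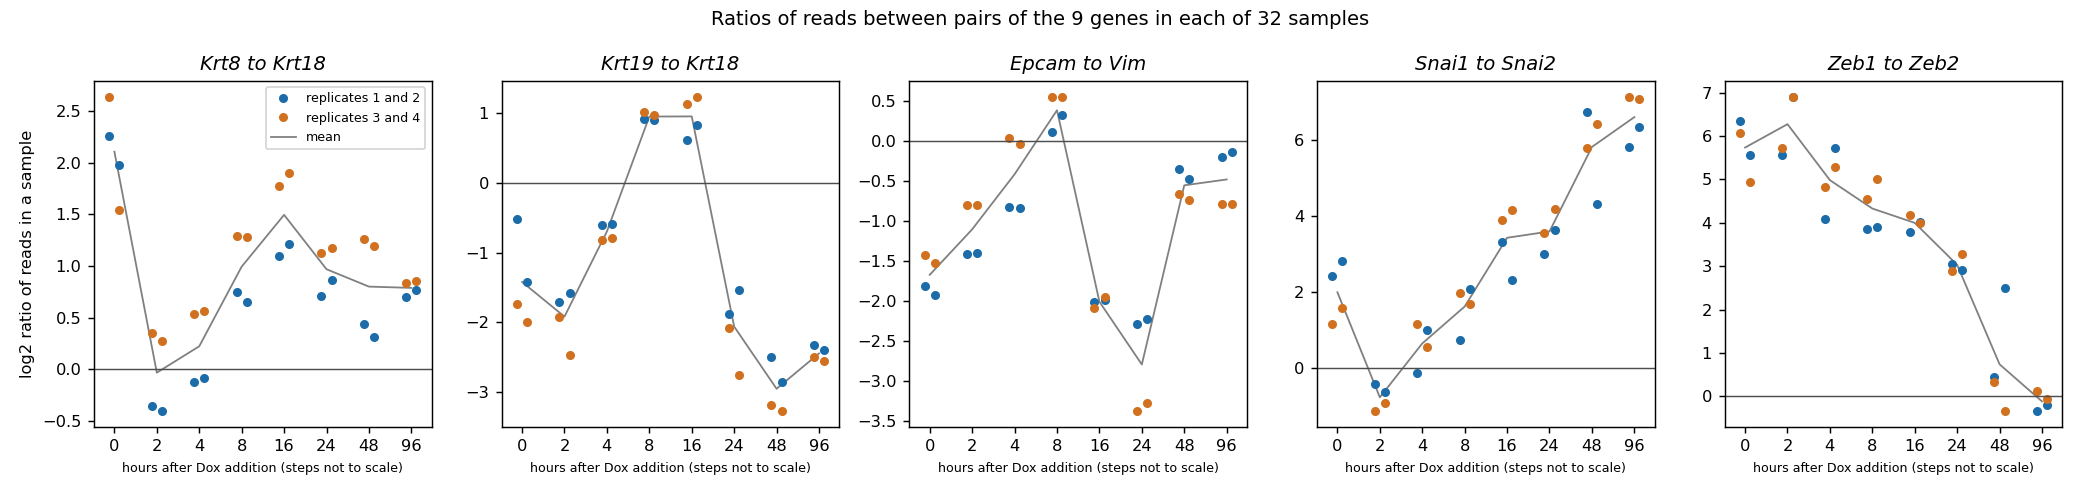
Log2 ratio of reads of 5 gene pairs in each of the 32 samples, against hours after Dox addition (steps not to scale). Blue points are replicates 1 and 2, orange points replicates 3 and 4, the line joins the means, and the horizontal line marks equal reads. *Krt19* stood above *Krt18* at 8 and 16 h, and the ratio of *Zeb1* to *Zeb2* fell from a mean of 5.74 at 0 h to -0.11 at 96 h.

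KRT8, KRT18 and KRT19 are also keratins of trophoblast, so its markers were read beside them. Of 12 trophoblast markers, 8 passed the filter. Their summed level over all 12 was 717 to 786 at 0 h, 309 to 385 at 8 h, 1023 to 1283 at 48 h and 388 to 790 at 96 h. *Plac1* alone went from a mean of 1.75 normalized counts at 0 h to 557 at 48 h, so the sum does not stand for a joint rise. The means of *Tfap2c* were 398 and 194 at these times, and those of *Tfap2a* 54.8 and 18.3. At 48 h, 4 of the 8 were called higher, namely *Plac1* (log2 fold change 8.05), *Hand1* (5.46), *Gata3* (4.00) and *Ascl2* (2.41), and 0 were called lower by limma or by limma-voom, with 3 lower at an unadjusted limma p under 0.05. Of all genes, 8.48% were called higher and 7.09% lower at 48 h. The trophoblast stem cell gene *Cdx2* had a mean of 26.2 normalized counts at 0 h and 29.5 at 48 h, and *Eomes* had 263 and 167. *Elf5* never exceeded 10 reads in a sample, *Gcm1* 3 and *Tpbpa* 1, and *Prl3d1* was at 0 in all samples. The part of trophoblast transcripts in the keratin levels was not tested.

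Genes with mean levels below 100 normalized counts, genes that did not pass, and those given for 96 h or 2 h are named here from the gene lists after their values were seen. Of 47 other keratin genes in the table, 6 passed the filter. At 48 h only *Krt7*, a type II keratin of simple epithelium, was called higher, by 2.95 on the log2 scale (limma adjusted p = 0.00176), from a mean of 16.9 to 102 normalized counts. It varied between replicates, with levels per kb at 96 h between 7.66 and 47.3, and it was not called in replicates 3 and 4 alone. *Krt42*, *Krt13* and *Krt23* were called lower at 48 h, with log2 fold changes of -4.25, -4.21 and -2.78. *Krt13* had risen first, from a mean of 58.9 at 0 h to 489 at 8 h, and stood at 2.36 at 48 h. The median over the 6 genes at 48 h was -1.96, beside -0.02 for all genes, which also stands beside the medians at 48 h of the lists that follow. Of all genes, 8.48% were called higher and 7.09% lower at 48 h. The false discovery rate alone was passed by 73.4% of all genes at 48 h and by 76.4% at 96 h. No share of all genes is given for counts at an unadjusted p under 0.05.

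Among 14 genes of desmosomes and plakins, the proteins that fasten keratin filaments to junctions, 13 passed the filter. At 48 h 2 of them were called higher and 1 lower, where 15.6% of all genes were called in either direction. The desmosomal cadherin gene *Dsc2* rose by 3.45 on the log2 scale (limma adjusted p = 9.29e-07). *Dsp*, whose product desmoplakin binds keratin directly, rose by 2.58 (adjusted p = 1.62e-08), from a mean of 97.0 to 506 normalized counts. *Eppk1*, an epiplakin gene, was lower, by -2.50. The median over the 13 genes was -0.45. Neither *Jup*, for plakoglobin, nor *Dsg2*, for the desmoglein of simple epithelia, passed the test at 48 h (log2 fold changes 0.15 and 0.27, adjusted p = 0.467 and 0.387).

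*Epcam* (ENSMUSG00000045394; chr17:87635979-87651129, + strand) was already present at 0 h, with 712, 588, 440.1 and 412 normalized counts. It stood at 1208, 1214, 1159.5 and 1085 at 2 h and at 2363, 2369.6, 3031 and 2866 at 8 h. All samples of 2, 4 and 8 h lay above all 0 h samples, and the 8 h samples lay above every other. The log2 fold change was 1.15 ± 0.14 (SE, n = 4 against 4) at 2 h (limma adjusted p = 1.78e-07) and 2.33 ± 0.14 at 8 h (adjusted p = 4.83e-14), the only time at which *Epcam* passed the 4-fold threshold. In replicates 1 and 2 alone the change at 8 h was 1.87, short of that threshold.

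After 8 h *Epcam* fell by 1.06 ± 0.14 on the log2 scale to 16 h (limma adjusted p = 3.98e-06) and by 0.47 ± 0.14 to 24 h (adjusted p = 0.0177, and 0.288 with set means). The latter step was -0.16 in replicates 1 and 2 and -0.78 in replicates 3 and 4. At 96 h it was 819, 815, 864 and 871, above all 0 h samples, with a log2 fold change of 0.68 ± 0.14 (adjusted p = 0.000115). In ascending order of the means the times ran 0, 96, 24, 48, 2, 16, 4 and 8 h. The samples of 96, 24, 48 and 2 h overlapped each with the next in this order, and all other neighbours stood apart.

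Of 12 genes for partners of EPCAM or for proteases and inhibitors that act on it, 12 passed the filter. At 48 h 1 was called higher and 1 lower, where 15.6% of all genes were called in either direction. *Fhl2*, for the LIM protein that joins the cleaved intracellular domain of EPCAM in the nucleus, rose by 2.56 on the log2 scale (limma adjusted p = 1.09e-06), from a mean of 4.71 to 29.8 normalized counts, and it was not called with a pseudocount of 5. *Spint1*, for an inhibitor of the membrane protease matriptase, fell by 2.49 (adjusted p = 1.45e-10), from a mean of 2293 to 389.9. At 96 h 4 were called higher and 1 lower (9.28% and 10.3% of all genes). The median of the 12 genes at 48 h was 0.66.

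*Vim* (ENSMUSG00000026728; chr2:13573927-13582826, + strand) was abundant from the start and differed between the replicate sets, with 2506 and 2235 normalized counts in replicates 1 and 2 at 0 h and 1182 and 1184 in replicates 3 and 4. At 2 h they stood at 3218 and 3202, and at 2027 and 1896, above the 0 h samples of their own set, with a pooled log2 fold change of 0.58 ± 0.21 (limma adjusted p = 0.0272, and 0.255 with set means). Taken over both sets, the samples of 0 to 8 h overlapped. At 16 h they rose together to 4937, 4966, 5347 and 5186, and at 24 h they stood at 5309.9, 5281, 7560.4 and 7573. These 8 samples lay above all others. The log2 fold change against 0 h was 1.61 ± 0.21 (SE, n = 4 against 4) at 16 h (limma adjusted p = 1.93e-07) and 1.92 ± 0.21 at 24 h (adjusted p = 4.36e-09), below the 4-fold threshold at both times. The sets differed here as well, with 1.06 and 1.16 at 16 and 24 h in replicates 1 and 2 alone, and 2.15 and 2.68, past the threshold, in replicates 3 and 4 alone.

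Single libraries also moved *Vim* across that threshold at 24 h. Without replicate 1 or 2 of 0 h its log2 fold change was 2.11 or 2.06, and without replicate 1 or 2 of 24 h it was 2.00 or 2.01. From 24 to 48 h *Vim* fell by 2.12 ± 0.21 (limma adjusted p = 1.41e-09), to 1463, 1558, 1407 and 1411, lower in all 4 samples. This change was -1.81 in replicates 1 and 2 alone, under 4-fold, and -2.42 in replicates 3 and 4 alone. At 96 h the sets moved apart. Replicates 1 and 2 held 948 and 900.3, below their 0 h levels by a log2 fold change of -1.36, whereas replicates 3 and 4 held 1490.0 and 1512, above their 0 h levels by 0.34. The pooled change at 96 h, -0.51 ± 0.21 (adjusted p = 0.0309), thus stood for opposite directions in the 2 sets, and with the mean of each set taken as 1 sample its adjusted p was 0.2.

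The ratio of *Epcam* to *Vim* reads, as log2, was -1.67 ± 0.24 (SD, n = 4) at 0 h. It was 0.38 ± 0.21 at 8 h, when every sample held more *Epcam* than *Vim* reads, -2.79 ± 0.62 at 24 h and -0.48 ± 0.36 at 96 h. The 8 h samples lay above those of every other time in this ratio and the 24 h samples below. These are ratios of reads, and the annotated exons of *Vim* (4743 bases) are longer than those of *Epcam* (2195 bases). Per kb of exon, the mean of *Epcam* exceeded that of *Vim* at 4 h (733 against 454) and 8 h (1211 against 429). It also did so at 48 h (456 against 308) and 96 h (384 against 256), whereas *Vim* had the higher mean at 0, 2, 16 and 24 h. Of 8 fibroblast markers, 1 passed the filter, and their summed level stayed between 3.26 and 34.0 normalized counts in all 32 samples. *Col3a1* never exceeded 2 reads and *Dcn* 1, at the times of high *Vim* as at all others. Other markers reached more, with at most 22 reads in a sample for *Thy1*, 21 for *Col1a1* and 18 for *Postn*. The mean of *Col1a1* was highest at 2 h (9.49 normalized counts), that of *Thy1* at 8 h (12.8) and that of *Postn* at 96 h (8.44).

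Of 12 other intermediate filament genes, 11 passed the filter, and at 48 h 1 was called higher and 1 lower (15.6% of all genes in either direction). *Lmna*, for the A-type lamins of the nuclear envelope, rose by 2.33 on the log2 scale (limma adjusted p = 8.55e-15), from a mean of 179 to 931 normalized counts. *Nefh*, for the heavy neurofilament chain, fell by 2.17 (adjusted p = 3.38e-08), from 203 to 46.7, and without replicate 2 of 48 h the count of genes called lower was 0. *Nes*, for nestin, which co-assembles with vimentin, had a mean of 70.6 at 0 h, 437 at 16 h and 171 at 48 h, with a log2 fold change of 1.27 at 48 h. The median over the 11 genes at 48 h was -0.57.

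**Figure D3:**
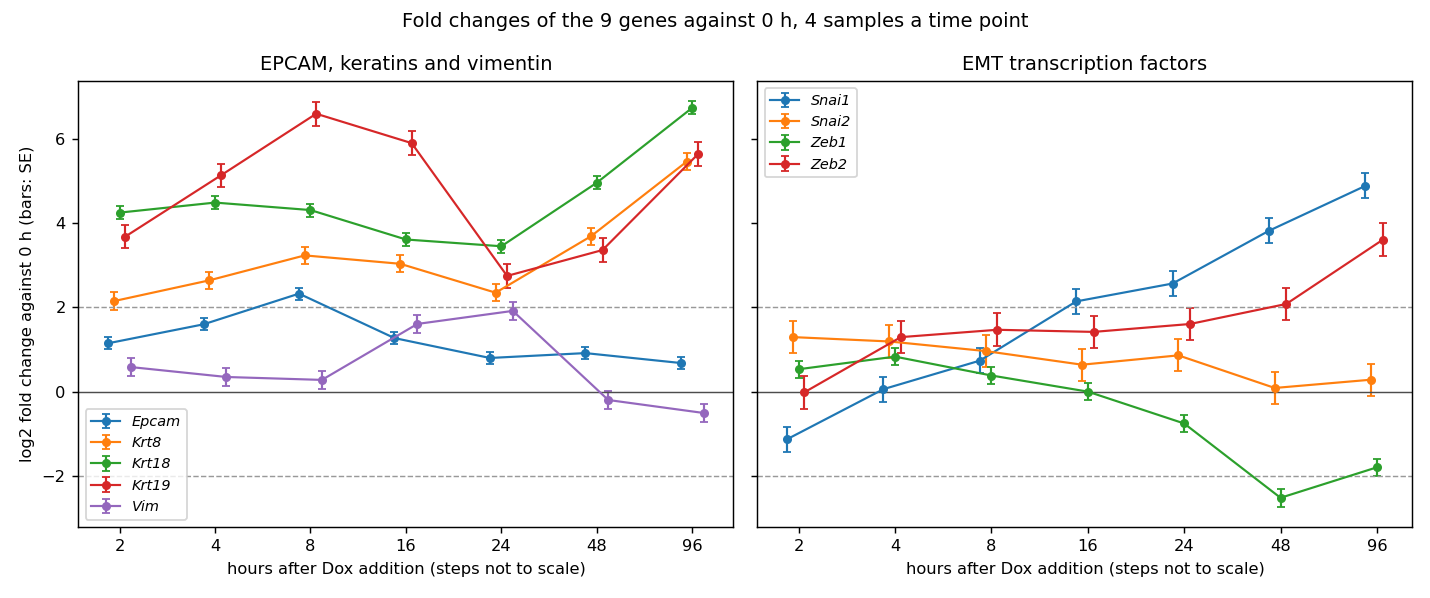
Log2 fold change of each gene against 0 h, on the log2(normalized count + 1) scale, at each of the 7 induced times (steps not to scale). Points are limma estimates from 4 samples a time point, bars are standard errors and dashed lines mark a 4-fold change. The keratin genes lie above the upper dashed line at all times, *Snai1* crosses it at 16 h, and *Zeb1* lies below the lower one at 48 h.

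*Snai1* (ENSMUSG00000042821; chr2:167538195-167542814, + strand) encodes a repressor that is needed to switch off E-cadherin at gastrulation. Its normalized counts at 0 h were 22.1, 14.3, 16.1 and 11.3, from 6 to 21 reads a sample. At 2 h they were 6.23, 6.79, 5.86 and 7.39, below every 0 h sample, a log2 fold change of -1.13 ± 0.30 (SE, n = 4 against 4; limma adjusted p = 0.00315) that is less than 4-fold and rests on at most 9 reads a sample. At 48 h they were 199.8, 224, 245 and 267, and at 96 h 482, 430.2, 531 and 516, above the samples of every earlier time. The log2 fold change was 3.82 ± 0.30 at 48 h (adjusted p = 1.52e-12) and 4.89 ± 0.30 at 96 h (adjusted p = 2.97e-15), where the mean was 30.7 times that of 0 h.

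From 2 h onwards the mean of *Snai1* was higher at each time than at the one before. The steps from 2 to 4 h, 8 to 16 h, 24 to 48 h and 48 to 96 h passed the false discovery rate, with log2 changes of 1.19, 1.41, 1.25 and 1.07 (limma adjusted p = 0.00473, 0.00118, 0.000799 and 0.00389), and each was under 4-fold. With set means the adjusted p of the first pair of these steps was 0.164 and 0.114, and that of the later pair 0.0379 and 0.0778. The steps from 4 to 8 h and from 16 to 24 h did not pass it (0.68 and 0.42, adjusted p = 0.148 and 0.339). At 8 h the sets differed, with 15.7 and 18.7 in replicates 1 and 2 and 42.8 and 38.8 in replicates 3 and 4. At 16 h *Snai1* was called at 2.14 ± 0.30 (adjusted p = 5.99e-07), but its change was 1.49 in replicates 1 and 2 alone, 1.95 without replicate 3 of 16 h and 1.91 with a pseudocount of 5.

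*Snai2* (ENSMUSG00000022676; chr16:14705852-14709385, + strand) encodes the paralogue of SNAI1 that is prominent in neural crest. It stayed near the limit of counting, with at most 17 reads in any sample, and it reached 10 normalized counts in 11 of the 32 samples. Its values were 4.14, 2.04, 7.25 and 3.78 at 0 h and 8.31, 10.6, 12.9 and 14.0 at 2 h, and the samples did not overlap. The log2 fold change at 2 h was 1.30 ± 0.38 (SE, n = 4 against 4; limma adjusted p = 0.0076), below 4-fold. At 96 h it was 0.28 ± 0.38 (adjusted p = 0.514), and a difference was not detectable at this depth. All neighbouring times in the order of its means overlapped.

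The ratio of *Snai1* to *Snai2* reads, as log2, was 1.99 ± 0.76 (SD, n = 4) at 0 h. It dropped below 0 at 2 h, to -0.78 ± 0.32, and stood at 6.60 ± 0.63 at 96 h. At 2 h every sample held more *Snai2* than *Snai1* reads, by ratios between 1.33 and 2.2. At 96 h every sample held between 56.8 and 141 *Snai1* reads for each *Snai2* read. These ratios rest on few reads, with 3 to 8 *Snai2* reads a sample at 96 h. At 2 h the samples held 5 to 9 *Snai1* and 8 to 17 *Snai2* reads.

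*Zeb1* (ENSMUSG00000024238; chr18:5591860-5775467, + strand) encodes a ZEB repressor, a protein that silences epithelial genes and the microRNAs that act against it. At 0 h it was lower in replicates 1 and 2, at 113 and 128 normalized counts, than in replicates 3 and 4, at 218 and 232. It stood at 237, 254, 366 and 339 at 4 h, above all 0 h samples, with a log2 fold change of 0.83 ± 0.21 (SE, n = 4 against 4; limma adjusted p = 0.00168) that is under 4-fold. At 48 h it was down to 31.1, 32.03, 25.5 and 23.7, below the samples of every other time, with a log2 fold change of -2.52 ± 0.21 (adjusted p = 4.98e-12).

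The loss of *Zeb1* came in steps of -0.76 ± 0.21 from 16 to 24 h and -1.77 ± 0.21 from 24 to 48 h (limma adjusted p = 0.00797 and 3.46e-08, and 0.225 and 0.00181 with set means), and in both the samples did not overlap. At 96 h it was 45.6, 43.1, 46.4 and 52.0, higher than at 48 h in all samples, by 0.72 ± 0.21 (adjusted p = 0.00473, and 0.117 with set means). Against 0 h the 96 h change was then -1.80 ± 0.21 (adjusted p = 4.99e-09), less than 4-fold. In replicates 1 and 2 alone the change at 48 h was -1.90, just under 4-fold, and in replicates 3 and 4 alone it was -3.14. Their 48 h levels had means of 31.6 and 24.6, closer together than the 0 h means of 121 and 225.

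*Zeb2* (ENSMUSG00000026872; chr2:44983632-45117395, - strand) encodes the other ZEB repressor, also known as SIP1 for its binding to SMADs. It was barely measurable at 0 h, with 1, 4, 4 and 4 reads, or 1.38, 2.72, 3.22 and 7.55 normalized counts. From 4 to 24 h the samples held between 4.85 and 14.2. At 48 h they held 22.6, 5.65, 20.2 and 29.9, where the low value of replicate 2 stood for 3 reads in 1 of the 4 shallow libraries and overlapped 0 h. At 96 h they held 57.3, 49.4, 42.7 and 53.9, above every sample of every other time.

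The log2 fold change of *Zeb2* was 2.08 ± 0.39 (SE, n = 4 against 4) at 48 h (limma adjusted p = 2.34e-05) and 3.61 ± 0.39 at 96 h (adjusted p = 1.28e-09). The call at 48 h lay at the threshold, with 1.81 without replicate 1 of 0 h, 1.95 and 1.82 without replicates 1 and 4 of 48 h, and 1.42 with a pseudocount of 5. The 96 h change stayed past it at 3.33 without replicate 1 of 0 h and at 2.72 with a pseudocount of 5. From 48 to 96 h *Zeb2* rose by 1.52 ± 0.39 (adjusted p = 0.00178). *Zeb2os*, on the opposite strand, held 1 read in all samples together, and the opposite-strand genes whose exons overlap *Krt8* and *Zeb1* held 70 and 15. Whether counting used the strand is not given in the sources used here, so reads of such partners cannot be told apart.

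The log2 ratio of *Zeb1* to *Zeb2* reads was 5.74 ± 0.62 (SD, n = 4) at 0 h and 3.03 ± 0.17 at 24 h. By 96 h it was -0.11 ± 0.19, when 0.796 to 1.09 *Zeb1* reads were counted for each *Zeb2* read. Every 96 h sample lay below every sample of 0 to 24 h in this ratio.

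Per kb of annotated exon, the order of the 9 genes at 0 h was *Vim* (375 ± 146 normalized counts per kb, SD, n = 4), *Epcam* (245 ± 63.6), *Krt8* (67.8 ± 7.3), *Krt18* (22.0 ± 6.5), *Zeb1* (16.9 ± 5.9), *Snai1* (9.84 ± 2.80), *Krt19* (6.57 ± 2.74), *Snai2* (2.13 ± 1.07) and *Zeb2* (0.186 ± 0.134). At 96 h *Krt8* (3016 ± 392) and *Krt18* (2389.5 ± 414) led, followed by *Epcam* (384 ± 13.3), *Krt19* (344 ± 82.0), *Snai1* (302 ± 27.6) and *Vim* (256 ± 70.4). The remaining levels per kb at 96 h were 4.56 ± 0.36 for *Zeb1*, 2.63 ± 1.10 for *Snai2* and 2.55 ± 0.32 for *Zeb2*. At 96 h *Krt8* overlapped *Krt18*, each gene from *Epcam* to *Vim* overlapped the next in this order, and *Snai2* overlapped *Zeb2*. The exon length of *Zeb2*, over all annotated transcripts, is 19942 bases, so its level per kb would be higher if a shorter transcript was used. *Snai1* stood above the other 3 EMT factors per kb in every 96 h sample, whereas at 0 h *Zeb1* (11.02 to 22.6) overlapped *Snai1* (6.99 to 13.6).

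Of 10 other genes for EMT transcription factors, 5 passed the filter. At 48 h *Twist1*, for a basic helix-loop-helix factor, was the only one called, higher by 2.11 on the log2 scale (limma adjusted p = 2.27e-12), from a mean of 12.8 to 59.7 normalized counts. Without replicate 1 of 48 h, and with a pseudocount of 5, 0 of these genes were called higher. The median over the 5 genes was -0.17. At 96 h 0 of the 5 were called by limma or by limma-voom, while 1 was higher and 3 were lower at an unadjusted p under 0.05. Of all genes, 15.6% were called at 48 h and 19.6% at 96 h.

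Corepressors through which SNAI and ZEB factors act, such as LSD1, CtBP and histone deacetylases, stayed under 4-fold at 48 h. All 10 genes of this list passed the filter, and 0 were called at 48 h by limma or by limma-voom (15.6% of all genes by limma), while 3 were higher and 5 lower at an unadjusted p under 0.05. Changes of more than 1 on the log2 scale were seen for *Ctbp2* (-1.67), *Hdac2* (-1.06) and *Limd1* (1.59), which all passed the false discovery rate. The median was -0.16.

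TGF-beta signals induce SNAI and ZEB genes in many epithelia. Of 10 genes for TGF-beta ligands, receptors and SMADs, 10 passed the filter, and at 48 h 2 were called higher and 0 lower (8.48% and 7.09% of all genes), with 3 lower at an unadjusted limma p under 0.05 and 0 by limma-voom. *Tgfbr3*, for the co-receptor betaglycan, rose by 3.03 on the log2 scale (limma adjusted p = 8e-10), from a mean of 55.0 to 432 normalized counts, and *Tgfb3*, for a ligand, by 3.24 (adjusted p = 7.57e-06), from 1.18 to 18.3. The median was 0.29. At 96 h 4 were called higher (9.28% of all genes), and limma-voom also called 4.

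Among 11 epithelial regulators, 9 passed the filter, and at 48 h 3 were called higher and 2 lower (8.48% and 7.09% of all genes). *Esrp1*, for an epithelial splicing factor, rose by 4.02 on the log2 scale (limma adjusted p = 1.32e-06), *Ovol1* by 3.65 and *Elf3*, for an ETS factor, by 2.09 (adjusted p = 2.27e-06). *Ovol1* held at most 16 reads in a sample, and its mean went from 0.34 to 15.5 normalized counts. Of the Grainyhead-like genes, *Grhl3* fell by 3.75, from a mean of 211 to 15.5 normalized counts, and *Grhl1* fell by 2.103. Without replicate 4 of 48 h 1 gene of the list was called lower. *Cdh1*, for E-cadherin, the classical target of the SNAI and ZEB factors, had means of 4845, 2304, 1278 and 897 normalized counts at 0, 24, 48 and 96 h. The log2 difference from 0 h was -1.91 at 48 h (adjusted p = 9.11e-13), under 4-fold, and -2.41 at 96 h, past it. The median of the list at 48 h was 1.01.

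Of 19 mesenchymal genes, 10 passed the filter, and at 48 h 1 was called higher and 2 lower (8.48% and 7.09% of all genes). *Sparc*, a matricellular protein gene that is also strongly expressed in parietal endoderm, rose by 3.96 on the log2 scale (limma adjusted p = 6.82e-16), from a mean of 4252 to 66186 normalized counts. *Fn1*, for fibronectin, fell by 3.23 (adjusted p = 4.16e-13), from 12637 to 1285, and *Cdh2*, for N-cadherin, by 2.05. Without replicate 1 or 2 of 0 h, or without replicate 3 of 48 h, 1 gene was called lower. The median over the 10 genes was -0.91.

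**Figure D4:**
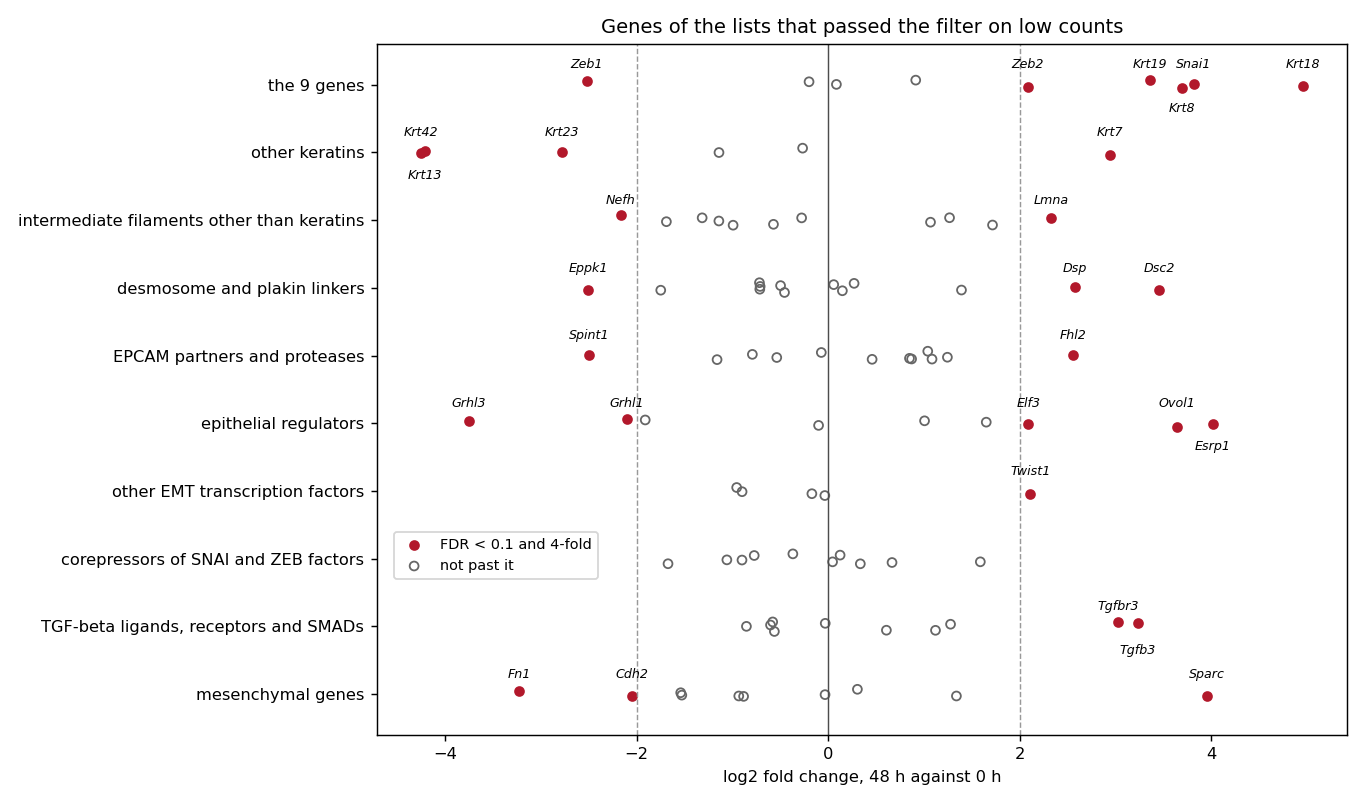
Log2 fold change at 48 h against 0 h of the 9 genes and of the genes of 9 lists that passed the filter on low counts, with 1 point a gene. Filled red points passed a false discovery rate of 0.1 and a 4-fold change (dashed lines), and open points did not. Of the 9 genes, 5 lie right of the upper dashed line and *Zeb1* left of the lower one.

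For each of the 9 genes, the genes with the most similar course were sought by the Pearson correlation of the 8 time point means among 9957 genes that reached a mean of 100 normalized counts at some time. *Krt8* was closest to *Tpm4*, a tropomyosin gene (r = 0.997, n = 8 time points), *Krt18* to the integrin gene *Itga5* (0.985) and *Krt19* to *Flnc*, for filamin C (0.978). *Zeb1* was closest to *Nbea* (0.997), *Snai1* to *Slc30a6* (0.994), *Zeb2* to *Scoc* (0.992), *Snai2* to *Socs6* (0.976), *Vim* to *4930447C04Rik* (0.960) and *Epcam* to *Khnyn* (0.949). These are descriptions over 8 means that share their libraries. *Tpm4* ran from a mean of 750.1 at 0 h to 10411 at 96 h and had the same order of time points as *Krt8*.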

How the data were processed

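Polyadenylated RNA of 32 samples (8 time points, 4 replicates) was sequenced with stranded single-end libraries. The authors trimmed reads with cutadapt 2.7, checked them with FastQC 0.11.8, aligned them with HISAT2 2.1.0 to GRCm38.p6 and counted them per GENCODE m18 gene with featureCounts of Subread 1.6.4 (versions from the submitters' processing notes). The deposited values are log2-scale values, reads divided by the size factor of each sample and passed through the variance stabilizing transformation.

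That transformation was inverted, and 100% of the values gave whole reads (tolerance 0.001), from 3190108 to 12301732 a sample. These depths limit genes such as *Snai2* and *Zeb2*, where a few reads decide a value. Of 29140 rows without a symbol, 29046 were named through a table of identifiers. Genes with at least 10 normalized counts in at least 4 samples (15227) were tested with limma 3.58.1 (R 4.3.3) on log2(normalized count + 1) with a mean-dependent prior variance, all 32 samples in 1 model with time point as the factor. Each induced time was compared with 0 h (7 comparisons) and with the time before it (6), each adjusted by Benjamini-Hochberg over all genes. On simulated data for 48 h against 0 h (13623 genes), 200 of 200 genes changed by 3 on the log2 scale were called, with 0 false calls. The simulated samples held no replicate sets, every gene had the same dispersion, and genes with the lowest counts were not changed. The result therefore cannot speak for changes near the threshold, for genes such as *Snai2* and *Zeb2*, or for the effect of the sets.

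The 9 genes, the gene lists and the tests were chosen with earlier results of these data known. Genes named from a list were among those called at 48 h, at most the 4 of largest change that also had a mean of at least 100 normalized counts in the higher group, or all past it where there were 2 or fewer, and others are named as chosen afterwards. Genes of similar course were the closest by Pearson correlation among genes with a mean of at least 100 at some time.

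Coordinates are those of GRCm38. Promoter windows are from RefSeq on GRCm38.p6. Alternatives were pseudocounts of 0.5 and 5, no filter, a filter on a mean of 50, TMM factors, the deposited values as they are, limma-voom on whole reads, the replicate number or the replicate set as a block, set means, each set alone, only the time points compared, no libraries under 5000000 reads, and each library left out in turn.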

Additional observations from a re-analysis of the deposited data

How the results depend on the processing

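Of the counts of the 9 genes past the threshold, 179 of 182 values under the alternatives stayed within 1.5 times the value reported. The exceptions came from single replicate sets. From 24 to 48 h the count was 1 in all samples, 0 in replicates 1 and 2 alone, where *Vim* was lost, and 2 in replicates 3 and 4 alone, and from 48 to 96 h it was 1 and became 3 in replicates 1 and 2 alone. Leaving out 1 library in turn moved none of these counts by more than 1.5 times. This compares how many genes were called and not which, and intervals with no call are included. At 8 h against 0 h the count stayed 4 in replicates 1 and 2 alone. There the log2 change of *Epcam*, called in all samples, was 1.87, and that of *Zeb2*, not called in all samples, was 2.18. Among changes past the false discovery rate in all samples or under the alternative, 7 turned direction, and 40 more changes of sign occurred where neither passed it. In replicates 1 and 2 alone, the log2 change at 8 h against 0 h was -0.21 for *Vim* and -0.047 for *Snai1*. In replicates 3 and 4 alone *Vim* was 0.25 at 48 h and 0.34 at 96 h against 0 h, 0.14 from 4 to 8 h and 0.091 from 48 to 96 h, and *Zeb1* was -0.27 at 16 h against 0 h. The cause was not tested. Of 689 calls made both in all samples and under an alternative, 0 changed direction.

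Samples with the same replicate number did not resemble each other more than the other number of their set (mean correlation of deviations 0.196 for each, and 15 of 32 samples were closest to their own number), so the numbers do not pair them within a set. The sets do link samples of different times, by the mean correlation of 0.196 within a set. The mean of -0.196 between samples of different sets mirrors that value, because deviations around the mean of a time point cancel. The main fit leaves the link between samples of a set out. With the replicate block the counts against 0 h were 3, 3, 4, 4, 4, 6 and 5, as without it, and those between neighbouring times 0, 0, 0, 1, 1 and 1. By the false discovery rate alone the block added *Snai1* from 4 to 8 h (limma adjusted p = 0.0547). It also added *Zeb1* at 8 h against 0 h (0.0397), from 4 to 8 h (0.041) and from 8 to 16 h (0.0772). No change of the 9 genes was lost by it. Of 9 genes most similar in course, 8 were not the closest when ranked by Spearman correlation. Calls of *Snai2* and *Zeb2* are limited by depth, and with a filter on a mean of 50 they were not tested.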

Other observations

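At 2 h, 2.35% of all genes were called against 0 h. The genes below were named after their values were seen. Of the 5 other EMT transcription factor genes tested, 2 were called higher. *Snai3*, a paralogue of *Snai1* and *Snai2*, rose by 4.67 on the log2 scale (limma adjusted p = 1.64e-12), from a mean of 21.6 normalized counts at 0 h. Its means at 4, 8 and 24 h were 273.6, 90.1 and 7.98. *Twist1* rose by 3.61 (adjusted p = 7.64e-17), from a mean of 12.8 to 168. *Snai1* was at its lowest at that time.

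Of 13 desmosome and plakin genes tested, 2 were called higher at 2 h, with a median log2 fold change of 0.80 over the 13. *Plec*, for plectin, which ties intermediate filaments to other structures, rose by 2.92 on the log2 scale (limma adjusted p = 5.57e-12), from a mean of 716 to 5421 normalized counts, and *Perp*, for a desmosomal membrane protein, by 2.40, to a mean of 529. Of 11 other intermediate filament genes, 1 was called, *Nefm*, for a neurofilament chain, which rose by 2.41, while by the false discovery rate alone 4 of the 11 were higher and 4 lower (median -0.09). Of all genes, 44.8% passed the false discovery rate alone at 2 h. Of 10 TGF-beta genes, 1 was called, the ligand gene *Tgfb1*, which rose by 2.12. *Fhl2* rose by 4.08 at 2 h and by 6.78 at 96 h, with means of 4.71 at 0 h, 89.8 at 2 h and 564 at 96 h.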
